A study of Homo sapiens with 12 samples.

Results

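A set of 9 genes that are widely used as readouts of mechanical signalling was followed through the RNA-Seq libraries of a human iPSC line. They were chosen by name, with earlier results of these data known. They are 5 target genes of YAP (CCN1, CCN2, ANKRD1, AMOTL2 and THBS1) and 4 target genes of SRF (TAGLN, ACTA2, CNN1 and MYL9). All 9 were found among the 58575 genes with a usable read count, and all 9 were among the 17747 genes that passed the filter on low counts and were tested. CCN1 and CCN2 carry these symbols in the files and are also known as CYR61 and CTGF.

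YAP and its relative TAZ are coactivators that have no DNA-binding domain of their own and act on genes through the TEAD transcription factors. The kinases of the Hippo pathway hold them in the cytoplasm, and spreading on a stiff surface, low cell density and tension in the actin cytoskeleton release them into the nucleus. SRF binds the CArG box and, with the coactivators MRTFA and MRTFB, reads the pool of unpolymerized actin, so that genes of the contractile apparatus follow actin assembly. Serum, from which SRF takes its name, is a classical stimulus of both pathways in cultured cells.

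The cells were 201B7, an established human iPSC line derived from skin, so that every value describes 1 line. Cond 1 (control) was kept in StemFit medium by the usual maintenance method, Cond 2 (Low nutrient) received StemFit that had been heated to 56 °C for 30 min, Cond 3 (Differentiation) received DMEM to which serum (FBS, 10%), nonessential amino acids (MEM NEAA, 1%) and a glutamine source (GlutaMax, 1%) had been added, and Cond 4 (physical stimulus, spelled "Physical stimulas" in the labels) was pipetted 20 times when passaged and then cultured like Cond 1. According to the methods, the line was seeded in every case on dishes coated with iMatrix511, a laminin fragment, in medium with Y-27632, an inhibitor of the kinase ROCK that lies upstream of actomyosin tension, and was harvested on Day 5. The heated medium was given from Day 2 and the serum medium from Day 4. Each condition had 3 libraries, which the study calls technical replicates in one place and triplicate runs of the experiment in another, so the p-values below measure the spread between these libraries, which may be technical.

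The 12 libraries held between 16441148 and 21871503 counts each. The 10 pluripotency markers summed to 8635 to 8902 TPM (a level corrected for gene length and library size) in Cond 1, to 7385 to 8478 TPM in Cond 2 and to 8767 to 9491 TPM in Cond 3. Of the 10, 3 rose and 5 fell in Cond 2, beside 10.8% of all genes tested higher and 10.1% lower. Every Cond 2 sum lay below those of Cond 1. In Cond 3, 4 rose and 4 fell, beside 19.5% of all genes higher and 18.8% lower. NANOG fell in both, from 45.9 TPM in Cond 1 to 22.9 TPM in Cond 2 and 10.5 TPM in Cond 3. POU5F1, a defining marker of these cells, was listed at a mean of only 1.32 TPM in Cond 1, beside 908 TPM for SOX2 and 1689 TPM for LIN28A. By immunostaining the study found most control cells positive for its protein, OCT4, so the low RNA value does not show that the marker was absent. The reason for the low value was not tested. In bulk libraries, fewer cells of one kind and less RNA per cell cannot be told apart.

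Promoters are one of the places where TEAD factors are known to act on YAP target genes. The 250 bases upstream of the transcription start are printed for the 3 YAP target genes with a TEAD motif on the gene's own strand. The window of ACTA2, the SRF target gene that had a match, is printed with them. The sequences are from RefSeq on GRCh38.p14, read 5′ to 3′ in the direction of the gene, and capitals mark the TEAD motif GGAATG, searched on both strands (CATTCC on the other strand). The windows are chr6:131951373-131951622 on the reverse strand for CCN2, chr10:90921088-90921337 on the reverse strand for ANKRD1, chr15:39580829-39581078 on the forward strand for THBS1 and chr10:88952774-88953023 on the reverse strand for ACTA2, the last of which lies inside the ACTA2 gene, upstream of an internal start.
CCN2: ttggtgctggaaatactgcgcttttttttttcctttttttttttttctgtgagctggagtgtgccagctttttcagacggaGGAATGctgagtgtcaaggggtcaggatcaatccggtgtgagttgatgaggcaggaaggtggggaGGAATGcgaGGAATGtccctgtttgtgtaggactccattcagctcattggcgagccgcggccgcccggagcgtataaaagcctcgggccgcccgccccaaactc
ANKRD1: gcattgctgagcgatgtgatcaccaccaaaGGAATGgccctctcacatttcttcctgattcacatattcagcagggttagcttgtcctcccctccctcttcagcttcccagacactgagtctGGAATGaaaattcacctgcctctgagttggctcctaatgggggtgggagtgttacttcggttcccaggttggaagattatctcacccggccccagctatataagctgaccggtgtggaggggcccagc
THBS1: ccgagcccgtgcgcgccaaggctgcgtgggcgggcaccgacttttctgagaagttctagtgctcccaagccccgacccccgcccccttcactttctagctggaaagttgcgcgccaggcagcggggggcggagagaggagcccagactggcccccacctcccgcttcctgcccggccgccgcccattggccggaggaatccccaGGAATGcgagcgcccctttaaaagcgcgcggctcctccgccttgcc
ACTA2: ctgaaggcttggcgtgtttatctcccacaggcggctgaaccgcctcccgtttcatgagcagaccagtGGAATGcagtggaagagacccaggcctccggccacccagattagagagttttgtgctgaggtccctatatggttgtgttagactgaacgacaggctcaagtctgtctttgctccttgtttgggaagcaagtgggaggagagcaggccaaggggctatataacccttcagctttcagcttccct
The CCN2 window held 3 copies of the motif, whose first bases lie 169, 104 and 95 bases upstream of the start. The ANKRD1 window held 2 copies, at 220 and 128 bases, and the THBS1 window held 1, at 46 bases. The ACTA2 window held 1 copy at 183 bases.

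Of 35116 promoter windows of the same length in the RefSeq table, 11.9% held at least 1 copy of the TEAD motif, 0.940% held at least 2 and 0.0826% held at least 3. Windows were found for 6 of the 9 genes, CCN2, ANKRD1, THBS1, AMOTL2, ACTA2 and CNN1. One of the 2 AMOTL2 windows also held a copy, on the opposite strand at 69 bases, and the CNN1 window and the outer ACTA2 window held none. The CArG box, searched as its strict 10-base consensus, was in 1.16% of all windows and in none of the 6 genes' windows. This says only that the strict consensus was not in these 250 bases. Looser forms of the box were not searched, and the printed ACTA2 window holds ccctatatgg and ccttgtttgg, which come close to the consensus. A match to either motif is a description of the sequence and not evidence of a bound site.

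The 9 genes covered a wide range of levels in the control cells. By mean TPM in Cond 1, the order from high to low was CCN2 (464 ± 25.3, SD, n = 3), CCN1 (329 ± 27.2), MYL9 (324 ± 12.7), TAGLN (174 ± 8.59), AMOTL2 (90.9 ± 2.94), CNN1 (53.9 ± 8.69), THBS1 (41.7 ± 4.25), ANKRD1 (10.7 ± 10.8) and ACTA2 (1.62 ± 0.630). Among neighbours in this order, the libraries of CCN1 and MYL9 overlapped, and the lowest CNN1 library (44.5 TPM) was hardly above the highest THBS1 library (44.2 TPM). CCN2, CCN1 and MYL9 were higher than over 99% of the 60617 genes in the TPM table over all 12 libraries, with shares below them of 99.4%, 99.2% and 99.3%. ACTA2, the smooth muscle actin, had only 6 to 61 counts per library and ANKRD1 35 to 277.

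**Figure D1:**
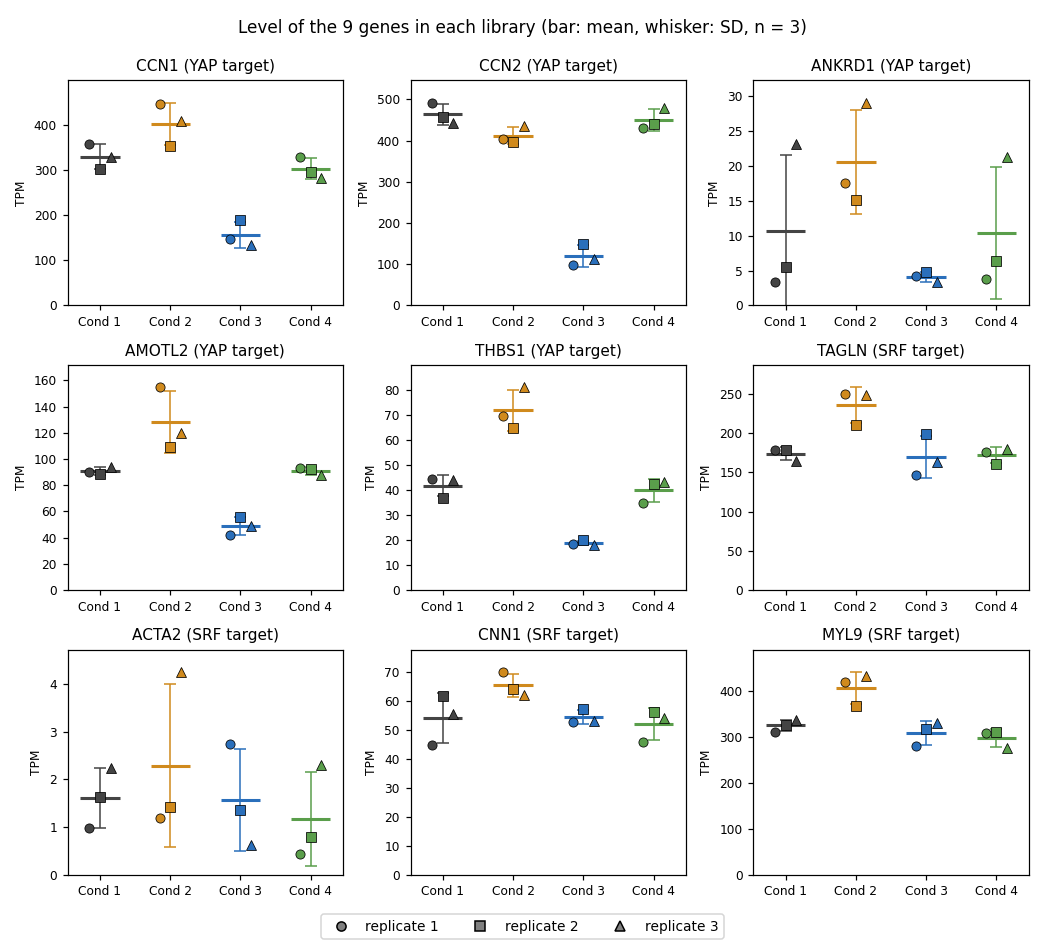
Level of each of the 9 genes in TPM (vertical axis, from 0) in the 12 libraries, grouped by condition (horizontal axis), with the replicate number as the marker shape, the mean as a bar and the SD as a whisker (n = 3, cut at 0). The Cond 3 libraries of CCN1, CCN2, AMOTL2 and THBS1 lie below all others, and the replicate 3 libraries of ANKRD1 and ACTA2 lie highest in Cond 1, Cond 2 and Cond 4 and lowest in Cond 3.

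Cond 3 against Cond 1 asks what happened to these genes when the maintenance medium was replaced by a medium with serum. All 5 YAP target genes were lower with an adjusted p-value under 0.05 in edgeR's quasi-likelihood test, beside 18.8% of all genes tested. Of these, 4 (CCN1, CCN2, ANKRD1 and THBS1) were also past a fold change of 2, beside 3.31% of all genes. The ANKRD1 libraries of Cond 1 and Cond 3 overlapped, and its call rested on 1 control library, as given below. None of the 9 was higher, beside 4.85% of all genes past both thresholds. The 4 SRF target genes did not pass the test in either direction. The median log2 fold change was -1.18 for the 5 YAP target genes and -0.062 for the 4 SRF target genes, beside -0.0064 for all genes tested. These medians describe the 9 genes and do not measure the output of either pathway. The other YAP/TAZ target genes tested had a median of -0.059 and the other SRF/MRTF target genes one of -0.15, as given below. CCN2 and THBS1 are also in a list of genes that the study chose on these samples as lower in Cond 3, so their direction is not independent evidence. That list also holds an entry printed as "CN1", which may be CCN1 with a letter lost, so the same may hold for CCN1. Since all 9 genes were chosen with earlier results of these data known, the shares of all genes describe the set and do not test it.

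CCN2, a secreted matrix-associated protein and the most used YAP target gene, lies at chr6:131948176-131951372 on the reverse strand. It was at 492, 458 and 443 TPM in the 3 libraries of Cond 1 and at 97.9, 148 and 114 TPM in those of Cond 3. Every Cond 3 library was at less than the lowest of the other 9 libraries. The log2 fold change was -1.98 ± 0.0958 (SE, n = 3, edgeR adjusted p = 3.30e-13), which leaves 25.3% of the control level with a 95% interval of 22.1% to 29.1%. It was the strongest decrease among the 9 genes, and 180th from the lowest of the 17747 genes tested.

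CCN1, the close relative of CCN2 and likewise secreted, lies at chr1:85580761-85584589 on the forward strand. Its 3 libraries were at 357, 303 and 329 TPM in Cond 1 and at 147, 188 and 133 TPM in Cond 3. The groups did not overlap, with the highest Cond 3 library well under the lowest control library. Its log2 fold change was -1.11 ± 0.103 (SE, n = 3, edgeR adjusted p = 1.45e-08). The decrease was smaller than that of CCN2, with 46.4% of the control level left (95% interval 40.1% to 53.8%), although no test compared the genes with each other.

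THBS1, which encodes thrombospondin 1, a matrix glycoprotein that activates latent TGF-beta, lies at chr15:39581079-39599466 on the forward strand. It was at 44.2, 36.8 and 44.1 TPM in Cond 1 and at 18.3, 19.9 and 18.1 TPM in Cond 3. The 3 Cond 3 libraries lay close together and below all libraries of the other conditions. Its log2 fold change was -1.18 ± 0.0929 (SE, n = 3, edgeR adjusted p = 1.15e-09).

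AMOTL2, an angiomotin-family scaffold that binds YAP at cell junctions and restrains it, lies at chr3:134355347-134375479 on the reverse strand. Its libraries were at 90.2, 88.4 and 94.1 TPM in Cond 1 and at 42.2, 55.9 and 48.7 TPM in Cond 3. The groups did not overlap. The log2 fold change was -0.92 ± 0.106 (SE, n = 3, edgeR adjusted p = 3.61e-07), so it passed the test without reaching a fold change of 2.

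ANKRD1, an ankyrin-repeat protein of the nucleus and the sarcomere, lies at chr10:90912096-90921087 on the reverse strand. It was at 3.39, 5.46 and 23.1 TPM in Cond 1, from 37, 51 and 268 counts, and at 4.21, 4.80 and 3.33 TPM in Cond 3, from 51, 52 and 35 counts. Replicates 1 and 2 of Cond 1 lay in the range of Cond 3 or just above it, and only replicate 3 was clearly higher. The log2 fold change was -1.42 ± 0.560 (SE, n = 3, edgeR adjusted p = 0.0481). Without Cond 1 replicate 3 it was -0.11 with an edgeR adjusted p of 0.899, so the decrease rested on 1 library.

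The SRF target genes were near the control level in Cond 3. TAGLN, which encodes the actin-binding protein transgelin, lies at chr11:117199370-117207464 on the forward strand. It was at 179, 179 and 164 TPM in Cond 1 and at 147, 199 and 163 TPM in Cond 3. The Cond 3 libraries lay on both sides of the controls. The interval of its log2 fold change was -0.25 to 0.12 (estimate -0.064, edgeR adjusted p = 0.612).

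MYL9, a regulatory light chain of nonmuscle and smooth muscle myosin, lies at chr20:36541497-36551447 on the forward strand. Its libraries were at 311, 326 and 337 TPM in Cond 1 and at 279.7, 316 and 329.9 TPM in Cond 3, and the groups overlapped. The interval of the difference was -0.25 to 0.049 on the log2 scale (estimate -0.10, edgeR adjusted p = 0.296).

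CNN1, which encodes calponin 1, an inhibitor of myosin ATPase activity in smooth muscle, lies at chr19:11538767-11550323 on the forward strand. It was at 44.5, 61.7 and 55.5 TPM in Cond 1 and at 52.8, 57.0 and 52.9 TPM in Cond 3, again overlapping. The interval was -0.24 to 0.20 (estimate -0.019, edgeR adjusted p = 0.914). For TAGLN, MYL9 and CNN1 a decrease by a factor of 2, as seen for CCN1 and THBS1, lay outside these intervals.

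ACTA2, the smooth muscle alpha-actin, lies at chr10:88935074-88991339 on the reverse strand. Its libraries were at 0.976, 1.64 and 2.24 TPM in Cond 1 and at 2.74, 1.35 and 0.633 TPM in Cond 3. The Cond 3 libraries spanned the whole range of the controls and beyond. The interval, -1.24 to 1.12 on the log2 scale, included a change by a factor of 2 in either direction.

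The markers of other cell types moved as follows beside these values. The 10 fibroblast markers summed to 299 to 324 TPM in Cond 1 and to 584 to 628 TPM in Cond 3. Of the 7 that were tested, 5 rose and none fell, beside 19.5% of all genes higher and 18.8% lower. Among those that rose were S100A4 (log2 fold change 2.61, edgeR adjusted p = 3.12e-08) and COL1A2 (1.20, edgeR adjusted p = 2.45e-12). The fibroblast genes DCN and FAP were listed at 0 in every library of both conditions. The 7 smooth muscle markers summed to 28.9 to 39.5 TPM in Cond 1 and to 26.6 to 33.4 TPM in Cond 3. There 1 of the 5 tested rose, 3 fell and 1 did not pass, beside the same shares of all genes, to which the 1 that rose is near. MYH11, the smooth muscle myosin heavy chain, was at means of 0.00662 and 0.00307 TPM. The 10 mesendoderm and cardiac markers summed to at most 7.36 TPM in any library, reached in Cond 3. Of the 4 that were tested, 1 rose in Cond 3 and none fell, and the 1 that rose is near the 19.5% of all genes. It was TBXT, which stayed low, at means of 0.0806 TPM in Cond 1 and 1.12 TPM in Cond 3 (log2 fold change 3.77, edgeR adjusted p = 0.00336). The part of these cell type markers in the changes of the 9 genes was not tested.

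**Figure D2:**
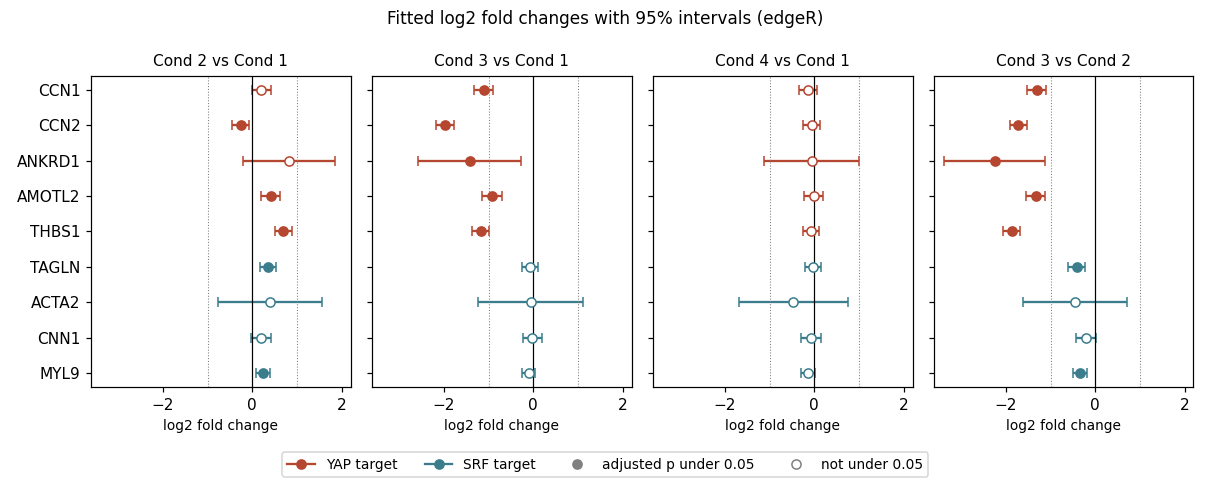
Log2 fold change of the 9 genes (horizontal axis, 0 is no change, dotted lines mark a fold change of 2) with 95% intervals from edgeR, in the 4 comparisons, for YAP target genes (red) and SRF target genes (blue-green). Filled points have an adjusted p-value under 0.05, which holds for 5 genes in each of the Cond 2 and Cond 3 panels against Cond 1, for none in Cond 4 and for 7 in Cond 3 against Cond 2.

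Cond 2 against Cond 1 asks what heated medium did to the same genes. Here the changes were smaller, and most of those that passed pointed upward: 4 of the 9 genes (AMOTL2, THBS1, TAGLN and MYL9) rose with an adjusted p-value under 0.05, beside 10.8% of all genes tested in that direction. CCN2 fell, which as 1 of 9 genes is near the 10.1% of all genes that did. None of the 9 was past a fold change of 2, beside 1.84% of all genes higher and 2.50% lower by that rule. The median log2 fold change was 0.35 over the 9 genes, 0.41 over the 5 YAP target genes and 0.30 over the 4 SRF target genes, beside 0.00018 over all genes tested.

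THBS1 had the largest increase that passed the test. It was at 69.4, 64.9 and 81.0 TPM in Cond 2, every library above the highest control of 44.2 TPM. The log2 fold change was 0.70 ± 0.0885 (SE, n = 3, edgeR adjusted p = 2.96e-06). AMOTL2 was at 155, 109 and 120 TPM, also without overlap, and rose by 0.41 ± 0.103 on the log2 scale (SE, n = 3, edgeR adjusted p = 0.00551). Without Cond 2 replicate 1, the library at 155 TPM, AMOTL2 was at 0.23 (edgeR adjusted p = 0.0493).

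TAGLN was at 249, 210 and 248 TPM in Cond 2 and MYL9 at 419, 367 and 432 TPM, and for both genes all 3 libraries were above all controls. TAGLN rose by 0.35 ± 0.0872 on the log2 scale (SE, n = 3, edgeR adjusted p = 0.00464). MYL9 rose by 0.24 ± 0.0725 (SE, n = 3, edgeR adjusted p = 0.0210), a call that was lost when Cond 1 replicate 1 (edgeR adjusted p = 0.106), Cond 2 replicate 1 (0.0770) or Cond 2 replicate 3 (0.0772) was left out, with log2 fold changes of 0.19 to 0.31 over all 6 such fits. The libraries of CNN1, at 69.8, 63.9 and 62.0 TPM, were likewise above all controls, by as little as 62.0 against 61.7 TPM, and its log2 fold change of 0.19 did not pass (edgeR adjusted p = 0.223).

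CCN2 and CCN1, members of the same protein family, were on different sides of the control here. CCN2 was at 403, 396 and 435 TPM in Cond 2, just under the lowest control of 443 TPM, and its log2 fold change was -0.26 ± 0.0906 (SE, n = 3, edgeR adjusted p = 0.0439). CCN1 was at 446, 353 and 407 TPM and overlapped the controls, with a log2 fold change of 0.20 that did not pass (edgeR adjusted p = 0.166). The CCN2 call was lost under DESeq2 (adjusted p = 0.170) and when any of 5 of the 6 libraries was left out, with edgeR adjusted p-values of 0.161, 0.0697 and 0.0642 without Cond 1 replicates 1, 2 and 3 and of 0.0570 and 0.158 without Cond 2 replicates 1 and 2. The log2 fold change itself was between -0.29 and -0.22 over all 6 edgeR fits that lacked 1 library. Under limma on log2(TPM + 1) and on log2(TPM + 0.1) the call was lost too. The log2 fold change was -0.17 in both limma fits (limma adjusted p = 0.5014 and 0.4865).

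ANKRD1 was at 17.6, 15.04 and 29.1 TPM in Cond 2, from 176, 170 and 277 counts. All 3 libraries were above replicates 1 and 2 of Cond 1, and replicate 3 of Cond 1, at 23.1 TPM, lay among them. The log2 fold change of 0.83 ± 0.499 did not pass (SE, n = 3, edgeR adjusted p = 0.275). Without Cond 1 replicate 3 it was 2.14 with an edgeR adjusted p of 0.00324, so here, too, 1 control library decided the call. ACTA2, at 1.20, 1.41 and 4.25 TPM, overlapped the controls and did not pass (log2 fold change 0.39, edgeR adjusted p = 0.694). In Cond 2 the fibroblast markers summed to 214 to 265 TPM and the smooth muscle markers to 24.3 to 32.2 TPM. None of the 7 and 5 that were tested rose, beside 10.8% of all genes, and the share of all genes that fell was 10.1%. The fibroblast markers COL1A1 and COL1A2 fell, by 0.51 and 0.41, and the smooth muscle marker ACTG2 fell by 0.76 (edgeR adjusted p = 4.68e-06, 7.04e-05 and 0.00567).

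By the simpler criterion of whether the 3 libraries lie above all 3 controls in TPM, 5 of the 9 genes did so in Cond 2 (AMOTL2, THBS1, TAGLN, CNN1 and MYL9), beside 24.4% of all genes tested, and CCN2 lay below them, beside 11.2%. In Cond 3 none of the 9 lay above, beside 26.6%, and 4 lay below (CCN1, CCN2, AMOTL2 and THBS1), beside 22.0%.

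Cond 4 against Cond 1 tests a mechanical treatment at passaging. None of the 9 genes passed the test in either direction, beside 0.0225% of all genes higher and 0.00563% lower with an adjusted p-value under 0.05 alone, and 0.0113% and 0.00563% with a fold change above 2 as well. At an unadjusted p-value under 0.05 the count was also 0 of 9 in edgeR, and DESeq2 and limma called none at an adjusted p-value under 0.05. CCN2 was at 431, 440 and 480 TPM and CCN1 at 328, 296 and 283 TPM, both overlapping the controls. The interval of the log2 fold change was -0.24 to 0.13 for CCN2 and -0.35 to 0.070 for CCN1.

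AMOTL2, at 92.8, 92.1 and 87.8 TPM, had an interval of -0.23 to 0.20 around an estimate of -0.014, and THBS1, at 34.6, 42.2 and 43.0 TPM, one of -0.26 to 0.11. Of the SRF target genes, TAGLN was at 176, 160.5 and 179 TPM and CNN1 at 45.6, 56.0 and 53.8 TPM. For these 6 genes a change by a factor of 2 in either direction lay outside the interval. MYL9 was at 307, 309.5 and 276 TPM, just below the lowest control of 311 TPM, with a log2 fold change of -0.14 (edgeR adjusted p = 0.809), and it was the only one of the 9 genes without overlap in this comparison, beside 5.12% of all genes lower and 6.75% higher. ANKRD1 (3.74, 6.30 and 21.2 TPM) and ACTA2 (0.426, 0.786 and 2.30 TPM) again had wide intervals, -1.13 to 1.01 and -1.69 to 0.76, which include a decrease by a factor of 2. The cells were harvested on Day 5 after the pipetting, and earlier times were not analysed here.

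Cond 3 against Cond 2 sets both changed media side by side. Since the serum medium was given for a shorter time, medium and length of exposure cannot be told apart in this comparison. All 5 YAP target genes were lower in Cond 3 by a fold change above 2, beside 3.01% of all genes, and none of the 9 was higher, beside 5.76%. Their log2 fold changes were -1.31 for CCN1 (edgeR adjusted p = 1.01e-09), -1.72 for CCN2 (3.21e-12), -2.25 for ANKRD1 (0.00225), -1.34 for AMOTL2 (1.29e-09) and -1.87 for THBS1 (5.60e-13). With no threshold on the fold change 7 of the 9 genes were lower, beside 19.2% of all genes, since TAGLN (-0.42, edgeR adjusted p = 5.45e-04) and MYL9 (-0.34, 7.01e-04) passed too. In 8 of the 9 genes all Cond 3 libraries lay below all Cond 2 libraries, beside 27.3% of all genes, and ACTA2 was the exception. For ANKRD1 this was the comparison in which the call did not depend on 1 library: with any single library of either condition removed, the log2 fold change ranged from -2.44 to -1.94.

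The level of the regulators was compared next. YAP1 was at 112 ± 1.78 TPM (SD, n = 3) in Cond 1 and fell slightly in Cond 3, by 0.20 on the log2 scale (edgeR adjusted p = 0.00904), and WWTR1, which encodes TAZ, fell from 9.68 to 7.21 TPM, by 0.46 (edgeR adjusted p = 0.00101). Neither passed in Cond 2 (edgeR adjusted p = 0.751 and 0.251). Of the 4 TEAD factors, TEAD1 rose in Cond 2 and fell in Cond 3, like AMOTL2 and THBS1, from 39.1 ± 3.31 TPM to 52.5 ± 3.22 TPM in Cond 2 and to 23.6 ± 1.96 TPM in Cond 3 (SD, n = 3). Its log2 fold changes were 0.34 and -0.76 (edgeR adjusted p = 0.00121 and 2.46e-08).

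TEAD2, the most abundant of the 4 by TPM in the control cells, rose in both media, by 0.47 and 0.21, while TEAD4 fell in both, by 0.36 in Cond 2 and 0.38 in Cond 3. TEAD3 fell by 0.45 in Cond 3 (edgeR adjusted p = 7.47e-06) and had a log2 fold change of -0.013 in Cond 2. Over the list of 20 Hippo pathway and TEAD genes, of which 19 were tested, 4 rose and 2 fell in Cond 2, beside 10.8% of all genes higher and 10.1% lower, and 4 rose and 8 fell in Cond 3, beside 19.5% higher and 18.8% lower. The 4 that rose in Cond 3 are thus near the share of all genes. None of them was past a fold change of 2, and the medians were 0.090 and -0.059.

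SRF itself was at 135 ± 3.84 TPM in Cond 1, 176 ± 11.9 TPM in Cond 2 and 100.2 ± 1.93 TPM in Cond 3 (SD, n = 3). It rose in Cond 2 and fell in Cond 3, with log2 fold changes of 0.30 and -0.45 (edgeR adjusted p = 3.28e-04 and 1.11e-06). MRTFB rose in Cond 2 (0.28, edgeR adjusted p = 0.0429) and was at -0.022 in Cond 3 (edgeR adjusted p = 0.888). MRTFA had no usable count and was tested by limma on log2(TPM + 1), where it did not pass in Cond 2 (adjusted p = 0.145) or in Cond 3 (adjusted p = 0.966).

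**Figure D3:**
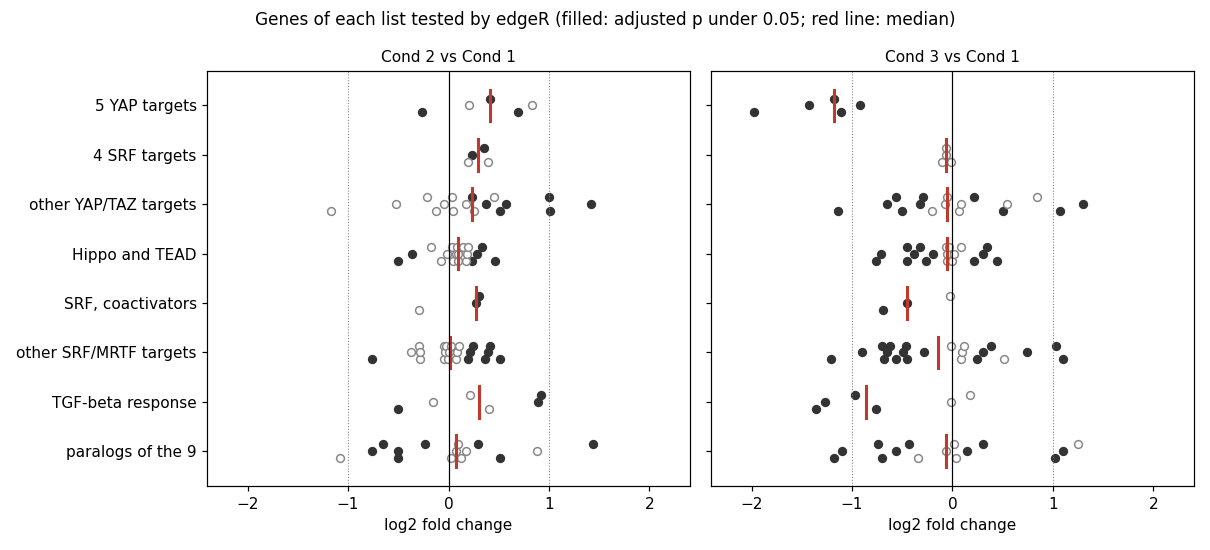
Log2 fold change against Cond 1 (horizontal axis) of each gene that edgeR tested in the 9 genes and in 6 lists of related genes (rows), for Cond 2 (left) and Cond 3 (right), with filled points for an adjusted p-value under 0.05 and a red line at the median. The 5 YAP target genes have medians of 0.41 and -1.18, and the other YAP/TAZ target genes have medians of 0.24 and -0.059.

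The other target genes of YAP and TAZ did not move as one group in Cond 3. Of 18 listed, 17 were tested, of which 4 rose and 6 fell, beside 19.5% of all genes higher and 18.8% lower, with a median log2 fold change of -0.059. GADD45A, a DNA-damage and stress response gene, fell by 1.14 (edgeR adjusted p = 6.66e-08). MYOF, which encodes the membrane protein myoferlin, rose by 1.30 (edgeR adjusted p = 2.92e-05), and IGFBP3, a binding protein of insulin-like growth factors, rose by 1.07 (edgeR adjusted p = 2.05e-07). In Cond 2, 7 of the 17 rose and none fell, beside 10.8% and 10.1% of all genes, with a median of 0.24. The largest increases were in TGFB2, a TGF-beta ligand, at 1.42 ± 0.382 (SE, n = 3, edgeR adjusted p = 0.00917) and in MYOF at 1.01 (edgeR adjusted p = 0.00102). Both were low, with means in Cond 1 and Cond 2 of 0.670 and 1.92 TPM for TGFB2 and of 2.88 and 6.14 TPM for MYOF.

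Among 25 other cytoskeletal target genes of SRF and MRTF, of which 22 were tested, 11 fell and 6 rose in Cond 3, beside 18.8% of all genes lower and 19.5% higher, with a median of -0.15. In contrast to TAGLN, CNN1 and MYL9, ACTB, the gene of cytoplasmic beta-actin and a classical SRF target, fell by 0.65 (edgeR adjusted p = 9.54e-10), from a mean of 9280 to 6032 TPM. ZYX, which encodes the focal adhesion protein zyxin, fell by 1.21 (edgeR adjusted p = 3.58e-04). TAGLN2, the relative of TAGLN, rose by 1.10 (edgeR adjusted p = 1.46e-10), and LMOD1, a leiomodin, rose by 1.03 (edgeR adjusted p = 0.00920). In Cond 2, 7 of the 22 rose and 1 fell, beside 10.8% and 10.1% of all genes, none of them past a fold change of 2, and ACTB had a log2 fold change of -0.035 (edgeR adjusted p = 0.697).

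Of 6 TGF-beta response genes, all tested, 4 fell in Cond 3, none rose and 2 did not pass, beside 18.8% of all genes lower and 19.5% higher, and the median was -0.87. In Cond 2, 2 rose and 1 fell, beside 10.8% of all genes higher and 10.1% lower. SKIL, a feedback inhibitor of SMAD signalling, fell in both media, by 0.50 in Cond 2 and 1.27 in Cond 3 (edgeR adjusted p = 1.34e-04 and 1.36e-10). SKIL and LMOD1 are, like CCN2 and THBS1, in the list the study chose on these samples, so their directions in Cond 3 are not independent evidence. In Cond 4, no gene of these lists passed the test.

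The 20 paralogs of the 9 genes, of which 15 were tested, showed that members of one family moved apart. ACTC1, the cardiac actin gene, rose by 1.44 in Cond 2 (edgeR adjusted p = 4.34e-10) and was at 0.014 in Cond 3 (edgeR adjusted p = 0.936). ACTA1, the skeletal muscle actin gene, fell by 0.51 in Cond 2 and by 1.10 in Cond 3 (edgeR adjusted p = 0.00386 and 3.13e-07). THBS2 fell in Cond 2 (-0.65, edgeR adjusted p = 0.0272), where THBS1 rose, and in Cond 3 (-1.18, edgeR adjusted p = 1.27e-04). TAGLN3 rose by 1.02 in Cond 3 (edgeR adjusted p = 0.0174). ACTA2 shared 0.211% of its 31-base words with ACTA1, ACTB, ACTC1, ACTG1 and ACTG2 together.

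The 9 genes varied more between libraries of the same condition than most genes of a like level. The within-condition SD of log2 CPM (counts corrected for library size) was 0.183 for CCN1, 0.167 for CCN2, 0.185 for AMOTL2 and 0.149 for THBS1, larger than in 98.3%, 97.3%, 98.98% and 96.4% of genes within 0.5 log2 units of their mean level. Among the SRF target genes it was 0.150 for TAGLN, 0.163 for CNN1 and 0.116 for MYL9, larger than in 96.0%, 92.7% and 90.8% of such genes. ANKRD1 had an SD of 0.989, larger than in 99.9% of 1460 genes of a like level, whose median was 0.268. ACTA2 had an SD of 0.903, larger than in 98.1% of 1756 genes with a median of 0.468.

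**Figure D4:**
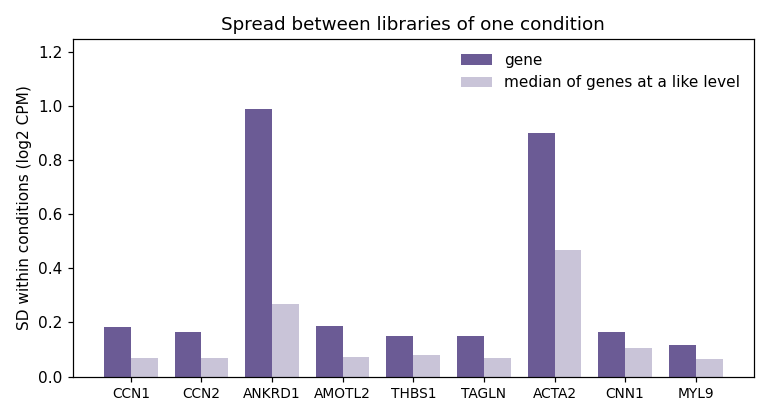
Standard deviation of log2 CPM between libraries of one condition (vertical axis, from 0), pooled over the 4 conditions, for each of the 9 genes (dark bars) and the median of genes within 0.5 log2 CPM of its level (light bars). Every dark bar is above its light bar, with ANKRD1 (0.989 against 0.268) and ACTA2 (0.903 against 0.468) the highest.

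Replicate 3 stood out for ANKRD1 and ACTA2, with the direction reversed in Cond 3. Replicate 3 of ANKRD1 was at 5.22, 1.78 and 4.23 times the mean of replicates 1 and 2 in Cond 1, Cond 2 and Cond 4, and at 0.740 times in Cond 3. For ACTA2 the ratios were 1.71, 3.26, 3.79 and 0.309 in Cond 1, Cond 2, Cond 4 and Cond 3. Replicate 3 was thus the highest of the 3 libraries in the same 3 conditions and the lowest in Cond 3 for both genes. For CCN1, CCN2, AMOTL2 and THBS1 these ratios lay between 0.791 and 1.21, and for TAGLN, CNN1 and MYL9 between 0.894 and 1.11. A like order at these smaller ratios was seen for MYL9, whose replicate 3 was the highest in Cond 1, Cond 2 and Cond 3 and the lowest in Cond 4. What the replicate numbers stand for is not given in the sources used here, and the part of a shared run or plate was not tested.

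The genes whose pattern was most like that of CCN2 were sought among 15701 tested genes with a mean TPM of at least 1, as those with the smallest root mean square difference of the 3 log2 fold changes against Cond 1. They were LINC01152 (0.0453), AC104596.1 (0.0468), STC2 (0.0614), PNMA2 (0.109) and RTCA-AS1 (0.121). STC2, which encodes the secreted glycoprotein stanniocalcin 2, was the only one of them at a mean above 100 TPM (139), and its log2 fold changes were -0.17, -1.92 and -0.050 in Cond 2, Cond 3 and Cond 4. The 5 genes most like TAGLN were TWSG1 (0.0120), HMGN2 (0.0210), TMCC1 (0.0245), PITPNM3 (0.0252) and HSP90AA2P (0.0274). Being alike over 3 comparisons that share the same controls is a description of these 12 libraries.

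Some of the 9 genes lie over other genes, and the strand setting of the counting is not given in the sources used here. In the GENCODE v44 annotation of GRCh38, TAGLN overlaps PCSK7 on the opposite strand by 3128 bases and shares 46.3% of its 31-base transcript words, on either strand, with other genes, and PCSK7 had 453 to 865 counts per library beside 3227 to 4936 for TAGLN. The largest share, 36.9% of the TAGLN words, is with a gene without a symbol on the same strand. That gene overlaps TAGLN by 2498 bases and had 1 to 27 counts. ACTA2 overlaps STAMBPL1, FAS and ACTA2-AS1 on the opposite strand and shares 37.1% of its words with other genes. With 6 to 61 counts of its own beside 56 to 161 for STAMBPL1 and 24 to 178 for FAS, ACTA2 is uncertain. CCN2 overlaps LINC01013, which had 0 to 4 counts, and CCN1 shares no word with another gene. The remaining 5 genes share between 0.463% and 6.99% of their words.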

How the data were processed

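RNA-Seq had been measured in 12 libraries of 201B7, 3 per condition. The authors prepared directional libraries from poly(A) RNA, and per the labels and methods the reads were processed with bcl2fastq 2.20.0.422, cutadapt 4.1, fastp 0.20.1, HISAT2 2.1.0 and featureCounts against GRCh38. The annotation release and the strand and multimapping settings are not given in the sources used here. The authors deposited read counts per gene as whole numbers without normalization. They also deposited TPM, which were the counts divided by gene length and scaled per library (largest relative deviation on recomputing 1.79e-14). Of 58580 data lines in the count table, 5 were not usable. Of the 60617 genes with a TPM, 2042 had no usable count, 5 of them among the lists, and these were tested only on TPM.

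Samples were grouped by the labels. A single edgeR 4.0.16 fit (R 4.3.3, TMM factors, quasi-likelihood test) used the counts of all 12 libraries for the 17747 genes kept by filterByExpr, and p-values were adjusted over all of these by the Benjamini-Hochberg method. A DEG had to pass an adjusted p-value of 0.05 and, in addition, a fold change of 2, and "rose" and "fell" refer to the adjusted p-value alone. The counts and the TPM gave per-library values, whose error is counting error plus the spread between libraries (chi-square per gene 4.07 to 9.58 over 12 pairs of libraries of one condition, so none was a duplicate).

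Alternatives were upper-quartile factors, DESeq2 1.42.0, fitting every gene with a count, fitting genes whose TPM reached 1 in every library, limma 3.58.1 on log2(TPM + 1) and log2(TPM + 0.1), the libraries of the compared conditions alone, the replicate number as a block, no threshold on the fold change and each library left out. Leaving out all libraries numbered 3 was added after the data were seen. The edgeR step was tested on simulated data.

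The 9 genes, the 7 pathway lists (99 distinct genes) and the 4 marker lists were chosen with earlier results of these data known. Named were the 9 genes, YAP1, WWTR1, TEAD1 to TEAD4, SRF, MRTFA, MRTFB, ACTB, per list up to 3 DEGs with the largest increase and decrease in Cond 2 and Cond 3 (mean TPM 1 or more), and the 5 genes most alike CCN2 and TAGLN. NT5E and the markers DCN, FAP, COL1A1, COL1A2, MYH11, NANOG, POU5F1 and TBXT were named after their values were seen. Protein sequences were not used here. Some list genes are not reported here.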

Additional observations from a re-analysis of the deposited data

How the results depend on the processing

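Over all genes tested, the replicate numbers showed no clear pairing of the libraries. Deviations from the condition means correlated at -0.013 to 0.038 over 18 same-numbered pairs, beside -0.069 to 0.061 over 36 pairs with other numbers. Of the 12 libraries, 3 correlated best with their own number in all other conditions. For ANKRD1 and ACTA2 replicate 3 did stand out, with the direction reversed in Cond 3, as given above. With the replicate block, 1 of the 9 genes was called higher in Cond 2 (ANKRD1, log2 fold change 1.13) and 3 were called lower in Cond 3 (CCN1, CCN2 and THBS1). The Cond 3 call of ANKRD1 was lost there (-1.02, edgeR adjusted p = 0.0501), and ACTA2 was at 0.13 in Cond 3. The decreases of CCN1, CCN2, AMOTL2 and THBS1 in Cond 3 kept their direction and an adjusted p-value under 0.05 in all 15 settings, against Cond 1 and against Cond 2. The number of the 9 genes called lower in Cond 3 against Cond 1 was 4 and became 3 to 4 with single libraries left out, 3 under DESeq2, limma and upper-quartile normalization and without the libraries numbered 3, and 5 with no threshold on the fold change. With no filter on low counts, ANKRD1 and CCN1 passed in Cond 2 (adjusted p = 8.39e-04 and 0.0155) at nearly the same log2 fold changes of 0.82 and 0.20. The number lower in Cond 3 against Cond 2 was 5, and 4 under limma on log2(TPM + 1). In Cond 2 the number called higher was 0, and became 4 with no threshold (1 lower), 1 without the libraries numbered 3, and 0 to 1 with single libraries left out (1, ANKRD1, without Cond 1 replicate 3). Pathway list genes called in Cond 2 numbered 4, and 7 without the libraries numbered 3. In Cond 4 they numbered 0, and 1 (NT5E) with no filter on low counts. Without the libraries numbered 3, ANKRD1 was at 0.010 in Cond 3 (adjusted p = 0.988), 1.82 in Cond 2 (adjusted p = 2.98e-04) and 0.20 in Cond 4. The Cond 2 calls of CCN2, TAGLN and MYL9 were then lost (adjusted p = 0.0742, 0.0943 and 0.0727), with log2 fold changes of -0.32, 0.29 and 0.24, against -0.26, 0.35 and 0.24 with all libraries.

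Values that changed sign had not passed the test, apart from ANKRD1 in Cond 3 above. Without the libraries numbered 3 these were ACTA2 (-0.064 in Cond 2, 0.64 in Cond 3, 0.70 in Cond 3 against Cond 2), CNN1 in Cond 3 (0.027) and AMOTL2 in Cond 4 (0.055). On log2(TPM + 0.1) and log2(TPM + 1), CNN1 in Cond 3 was at 0.020 and 0.020, ANKRD1 in Cond 4 at 0.072 and 0.056 and AMOTL2 in Cond 4 at 8.51e-05 and 8.37e-05, and CNN1 in Cond 3 was at 0.0017 with upper-quartile normalization. With single libraries left out the ranges that crossed 0 were -0.39 to 0.72 (ACTA2, Cond 2), -0.73 to 0.31 (ACTA2, Cond 3), -1.12 to 0.33 (ACTA2, Cond 3 against Cond 2), -0.15 to 0.081 (CNN1, Cond 3), -0.20 to 0.032 (CNN1, Cond 4), -0.20 to 0.033 (TAGLN, Cond 3), -0.062 to 0.015 (TAGLN, Cond 4), -1.12 to 1.25 (ANKRD1, Cond 4), -0.038 to 0.022 (AMOTL2, Cond 4) and -0.16 to 0.017 (THBS1, Cond 4). The cause was not tested. ACTA2 and ANKRD1 had the fewest counts of the 9 genes, 6 to 61 and 35 to 277 per library, but also a larger spread than most genes of a like level.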
